A study of Mus musculus with 30 samples.

Results

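The comparison covers the middle step of a course of muscle conversion, 12 h against 6 h, in mouse embryonic fibroblasts that carried a fusion of wild-type MyoD with the estrogen receptor (ER). Its members are the 3 arrays titled for wild-type MyoD at 12 h and the 3 titled for wild-type MyoD at 6 h, 6 of the 30 arrays of the series, and it takes in all 18193 genes measured. All fibroblasts came from animals without MyoD and Myf5. Each culture had received a retrovirus for the wild-type fusion (ER-MyoD wt), for the fusion changed at lysines 99, 102 and 104 so that it cannot be acetylated (ER-MyoD RRR), or for no fusion (empty retrovirus). The groups used are ER-MyoD wt at 12 h and at 6 h, then ER-MyoD wt at 24 h and 0 h, ER-MyoD RRR at 24, 12 and 6 h and empty retrovirus at 24, 12 and 6 h, with 3 arrays each. According to the series' design text, the cells were kept in differentiation medium with beta-estradiol for those times, so medium, hormone and virus are the same at 12 h and at 6 h. The labels give neither the age of the embryos nor whether the 3 arrays of a group are separate cultures. A p-value therefore reflects the variation among the arrays at hand, part or all of which may be technical.

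MyoD is a basic helix-loop-helix transcription factor that binds E-boxes, short DNA sites with the letters CANNTG, and can turn fibroblasts into skeletal muscle cells. Fused to the hormone-binding domain of the estrogen receptor it is held inactive until estradiol is added. In muscle differentiation the myogenic factors act in sequence: myogenin follows MyoD, cells leave the cell cycle, fuse into myotubes, and build the contractile apparatus and the acetylcholine receptor.

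At 12 h the muscle genes Myog, Chrng, Mymk and Actc1 were higher than at 6 h, together with most genes of cholesterol synthesis and many of fatty acid synthesis. Growth and fibroblast genes such as Tm4sf1, Hmga2, Fosl1, Ccnd1 and Timp1 were lower. Of 18193 genes, 482 passed the threshold, an adjusted p under 0.05 (2.65% of all genes; limma, moderated two-sided test, Benjamini-Hochberg adjustment). Of these, 264 were higher at 12 h (1.45%) and 218 lower (1.2%). Most of the differences were small: 86 of the rises (0.473% of all genes) and 50 of the falls (0.275%) were at least 2-fold on the log2(signal + 16) scale used for every difference here, and 6 and 3 were at least 4-fold. The 3 arrays at 12 h and the 3 at 6 h did not overlap for any of the 264 risen genes and for 216 of the 218 fallen ones (1.19%), while this held for 3636 genes (20%) whether they passed or not. At an unadjusted p under 0.05, 2379 genes differed. The neighbouring steps in the same cells were larger, with 3221 genes (17.7%) past the threshold between 6 h and 0 h (9.51% higher, 8.2% lower) and 3128 (17.2%) between 24 h and 12 h (7.99% higher, 9.21% lower). Those steps share the 6 h or the 12 h arrays with the comparison described here. The number past the threshold was 219 (99 higher, 120 lower) when the arrays were only centred on their medians. It lay between 254 and 345 with 1 of the 6 arrays left out: 254 without 12 h replicate 1, 272 without 6 h replicate 3 and 304 without 6 h replicate 2.

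The promoters of Myog, Idi2, Chrng and Slc22a4, all strongly risen, are shown because E-boxes are the sites MyoD and myogenin bind. They are the RefSeq sequences from 250 bases before to 50 bases after the gene start (build GRCm38.p6), written 5′ to 3′ along the gene's strand. Capitals mark every CANNTG.
Myog, chr1:134289754-134290053, plus strand: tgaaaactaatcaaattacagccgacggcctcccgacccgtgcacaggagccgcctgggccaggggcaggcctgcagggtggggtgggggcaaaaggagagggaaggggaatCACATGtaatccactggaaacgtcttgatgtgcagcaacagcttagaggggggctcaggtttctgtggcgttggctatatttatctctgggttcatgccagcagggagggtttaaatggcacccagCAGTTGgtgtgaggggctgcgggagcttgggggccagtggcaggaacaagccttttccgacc
Idi2, chr13:8952613-8952912, plus strand: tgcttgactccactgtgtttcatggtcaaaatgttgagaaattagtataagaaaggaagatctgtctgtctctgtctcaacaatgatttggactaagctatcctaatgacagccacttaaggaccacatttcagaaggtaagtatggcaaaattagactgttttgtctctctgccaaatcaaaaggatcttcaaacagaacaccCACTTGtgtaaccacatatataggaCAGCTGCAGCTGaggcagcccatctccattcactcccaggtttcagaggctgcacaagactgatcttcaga
Chrng, chr1:87205561-87205860, plus strand: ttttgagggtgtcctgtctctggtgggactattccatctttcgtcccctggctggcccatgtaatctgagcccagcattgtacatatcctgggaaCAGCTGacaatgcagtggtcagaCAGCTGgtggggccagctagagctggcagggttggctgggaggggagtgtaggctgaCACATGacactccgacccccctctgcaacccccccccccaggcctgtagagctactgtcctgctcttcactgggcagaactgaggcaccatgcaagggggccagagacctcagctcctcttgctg
Slc22a4, chr11:54028055-54028354, minus strand: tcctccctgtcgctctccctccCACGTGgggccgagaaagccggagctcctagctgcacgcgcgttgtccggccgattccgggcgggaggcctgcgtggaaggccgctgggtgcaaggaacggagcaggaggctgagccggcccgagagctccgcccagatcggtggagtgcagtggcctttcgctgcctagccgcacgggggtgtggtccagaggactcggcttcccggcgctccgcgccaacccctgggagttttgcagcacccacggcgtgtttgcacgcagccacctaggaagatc
The E-box letters in the Myog window are CACATG at position -138 and CAGTTG at position -12 relative to the gene start. The Chrng window holds CAGCTG at -155 and -132 and CACATG at -75, and the Idi2 window holds CACTTG at -46 and CAGCTG at -21 and -15. The Slc22a4 window holds only CACGTG, at -228. Such letters are common, and CANNTG reads the same class of letters on both strands. Windows of 300 bases with at least 1 CANNTG were 65.6% of those of risen genes (141 of 215 with a window), 57.4% of those of fallen genes (97 of 169) and 67% of those of all genes tested (9683 of 14452). The palindrome CAGCTG, which is one form of CANNTG, stood in 20% of the windows of risen genes, 16% of those of fallen genes and 16.1% of all. These matches describe letters and show no binding.

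The 6 arrays were alike in median signal and correlation, but less alike in the Actb ratio given below. Their median signals ran from 41.6 to 45.1 at 12 h and from 38 to 46.4 at 6 h. Each array correlated best with an array of its own group (Pearson's r within a group 0.96 to 0.968 over all genes, with 1 probe set each). The highest r of an array with the other time was nearly as large, at 0.956 to 0.962. The ratio of 3′ to 5′ probe signal, which is low in intact RNA, lay between 0.843 and 1.14 for Gapdh. For Actb it was 1.13, 1.13 and 2.07 at 12 h and 1.14, 1.57 and 1.41 at 6 h. Of the 6 arrays, 12 h replicate 3 stood highest on both ratios (Gapdh 1.14, Actb 2.07). Among the arrays of the other groups, ER-MyoD RRR 6 h replicate 2 stood highest on both ratios (Gapdh 2.44, Actb 3.61). Of 13 skeletal muscle markers, 5 rose and 0 fell, and their summed signal was 15425 to 15986 at 12 h, against 8367 to 8592 at 6 h. Of 14 fibroblast markers, 0 rose and 3 fell (Vim, Thy1 and Prrx1), and their sum was 29558 to 30847 at 12 h, against 34780 to 42339 at 6 h. In pooled cells, fewer cells of a type and less RNA per cell cannot be told apart. Markers of cardiac, cartilage and bone, neuronal and glial, blood, endothelial and epithelial cells included 0 genes past the threshold. Of 11 adipocyte markers only Cebpb, a transcription factor of many cell types, fell. Their sum was 2296 to 2626 at 12 h, against 3252 to 4086 at 6 h. The endothelial sum was 448 to 482 at 12 h, against 408 to 432 at 6 h, and the sums of the remaining marker lists overlapped.

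The gene for MyoD itself was measured first. The Myod1 probe set had signals of 877, 1061 and 468 at 12 h and 1125, 753 and 814 at 6 h. The groups overlapped, and the difference of -0.16 ± 0.35 on the log2 scale (standard error) did not pass (limma, adjusted p = 0.92). In empty retrovirus cells the mean was 182 ± 11.8 at 12 h and 167 ± 32.0 at 6 h (SD, n = 3 arrays each). Myf5 had a mean of 306 ± 93.8 at 12 h and 456 ± 91.6 at 6 h, and its difference of -0.55 ± 0.28 did not pass either (adjusted p = 0.42). Where these probe sets lie relative to the deleted parts of both genes was not known here, so they do not check the deletions.

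Among the 34 myogenic transcription regulators measured, 5 rose and 3 fell (median 0.19, against 0.0093 over all genes). Over all genes 1.45% rose and 1.2% fell, the shares to hold beside this and every other list or marker count of this step. Myog encodes myogenin, the factor that starts terminal differentiation. It had signals of 669, 562 and 609 at 12 h and 37.2, 25.5 and 10.5 at 6 h. Every 12 h array was far above every 6 h array, and the difference of 3.91 ± 0.22 was the largest rise among the genes named (adjusted p = 2.59e-12). The other regulators moved much less. Hes6, a helix-loop-helix protein that promotes differentiation, averaged 427 ± 15.5 at 12 h and 253 ± 38.3 at 6 h (0.71 ± 0.16, adjusted p = 0.0125). Mef2d, a MADS-box partner of the myogenic factors, rose by 0.61 ± 0.14, and so did Zbtb18 (0.65) and Rbm38 (0.87). Mef2c and Mef2a did not pass, with differences of 0.52 ± 0.21 and 0.64 ± 0.25 (adjusted p = 0.248 and 0.237). For Mef2a this depended on the probe set. Another one, at a mean of 1665 at 12 h and 1029 at 6 h, passed (0.71, limma over all probe sets, adjusted p = 0.00316). The remaining ones rose by 0.21 to 0.88 without passing. The regulators that fell were Hmga2, Fhl1 and Cited2. Hmga2, a chromatin protein of growing embryonic cells, had signals of 543, 600 and 728 at 12 h and 2184, 3441 and 2755 at 6 h. Its fall of -2.07 ± 0.25 (adjusted p = 6.37e-06) separated the groups completely. The list rests partly on single arrays, with 1 to 4 rises when 1 array was left out: 1 without 6 h replicate 3, 2 without 12 h replicate 1 or 6 h replicate 2, and 3 without 12 h replicate 2 or 6 h replicate 1. The call of Hes6 was lost without 12 h replicate 1, 6 h replicate 2 or 6 h replicate 3, with the highest adjusted p at 0.0728, and that of Cited2 without 12 h replicate 1 (0.0763).

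Of 50 genes of the thin and thick filaments of the sarcomere, the contractile unit of muscle, 5 rose and 1 fell. Actc1, the cardiac alpha-actin that developing skeletal muscle also makes, had signals of 1211, 1171 and 1435 at 12 h and 340, 323 and 367 at 6 h. The groups lay well apart, and the rise was 1.79 ± 0.29 (adjusted p = 0.000329). Tnnt1, the slow troponin T, averaged 152 ± 37.4 at 12 h and 33.9 ± 12.5 at 6 h (1.68 ± 0.27, adjusted p = 0.000329). Tnnc1, the slow and cardiac troponin C, averaged 1240 ± 232 at 12 h and 554 ± 33.1 at 6 h (1.11 ± 0.15, adjusted p = 2.85e-05). Actn3, a Z-disc actinin, and Unc45b, a myosin chaperone, were the other rises (1.35 and 0.98), and Tpm1, a tropomyosin of muscle and fibroblasts, fell (-0.61). The count was 3 rises without 12 h replicate 3, 6 h replicate 2 or 6 h replicate 3, and 0 falls without any array but the last of these. Tnnt2, cardiac troponin T, was already high at 6 h. Its signals were 6686, 6161 and 7647 at 12 h and 4071, 4384 and 4554 at 6 h, without overlap, yet the difference of 0.73 ± 0.24 missed the threshold (adjusted p = 0.112). It passed with a pseudocount of 64 (0.00114), with the mean of all its probe sets (0.012) and with the 6 arrays fitted alone (0.0185). The muscle genes Acta1, Tnni1, Myh3, Des and Ckm did not pass, with differences of 0.37, 0.62, 0.19, 0.44 and 0.19. Most of the sarcomere list moved in the next interval, which shares the 12 h arrays: 27 of the 50 rose and 3 fell between 24 h and 12 h, with a median of 1.01, against 0.175 between 12 h and 6 h. Over all genes 7.99% rose and 9.21% fell between 24 h and 12 h.

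The acetylcholine receptor receives the nerve's signal, and its gamma subunit marks the fetal form. Its gene Chrng had signals of 550.5, 429.7 and 411 at 12 h and 76.5, 77.2 and 14.1 at 6 h. All 12 h arrays were above all 6 h arrays (2.79 ± 0.28, adjusted p = 4.68e-07). Rapsn, which anchors the receptor at the synapse, had 112, 117 and 116 at 12 h and 39.8, 39.6 and 11.9 at 6 h (1.51 ± 0.31, adjusted p = 0.0053). Without 6 h replicate 3 its adjusted p was 0.0656. Chrna1, the receptor's alpha subunit, did not pass (0.32 ± 0.32, adjusted p = 0.764) and had a mean of 64.4 at 12 h and 46.5 at 6 h. Of the 16 genes of this list, 2 rose and 1 fell, the ETS factor Etv5, whose call was lost without any 1 of the 6 arrays. Among 26 genes of calcium handling 2 rose. Pvalb, a calcium buffer of fast muscle, averaged 285 ± 78.2 at 12 h and 91.1 ± 18.2 at 6 h (1.36 ± 0.24, adjusted p = 0.000987). Cacna1s, the voltage sensor of the muscle calcium channel, stood at 38.4 ± 8.43 and 5.78 ± 2.57 (12 h, then 6 h), a low signal (1.32 ± 0.31, adjusted p = 0.0135), and lost its call without 4 of the 6 arrays in turn (highest adjusted p 0.0776, without 6 h replicate 2). Between 24 h and 12 h, 13 of the 26 rose and 0 fell. Of 25 genes of muscle energy metabolism only Ckb passed, the brain-type creatine kinase, at 2483 ± 335 at 12 h and 1236 ± 132 at 6 h (1.03 ± 0.13, adjusted p = 1.4e-05).

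Of 32 genes of myoblast adhesion and fusion, 4 rose and 2 fell. Mymk encodes myomaker, the membrane protein required for myoblasts to fuse. It had signals of 3723, 3646 and 3116 at 12 h and 1059, 1000.3 and 972 at 6 h, with no overlap (1.82 ± 0.26, adjusted p = 6.65e-05). Mymx, which encodes its partner myomixer, averaged 462 ± 178 at 12 h and 229 ± 42.1 at 6 h and did not pass (0.87 ± 0.40, adjusted p = 0.345). Cdh15, the muscle cadherin, had signals of 1700.2, 1613 and 1413 at 12 h and 813, 930 and 581 at 6 h. It too rose without overlap (1.03 ± 0.17, adjusted p = 0.000395). The others were Tspan33 (1.31) and the laminin receptor subunit Itga7 (0.56) among the rises, and the adhesion molecules Vcam1 (-0.57) and Cdh11 (-0.59) among the falls. Megf10, a receptor of satellite cells, did not pass (0.49 ± 0.25, adjusted p = 0.41). The count was 2 rises without 12 h replicate 1, 6 h replicate 2 or 6 h replicate 3, and 1 fall without 12 h replicates 1 or 3 or 6 h replicates 1 or 3. Of 25 genes of the dystrophin complex and the costamere, Dag1 (dystroglycan, 0.62) and Lama4 (a laminin chain, 1.15) rose, although neither did without 12 h replicate 1, without 12 h replicate 3 or without 6 h replicate 3. Vcl, the focal adhesion protein vinculin, fell to 1919 ± 211 at 12 h, against 3502 ± 366 at 6 h (-0.87 ± 0.13, adjusted p = 9.29e-05).

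**Figure D1:**
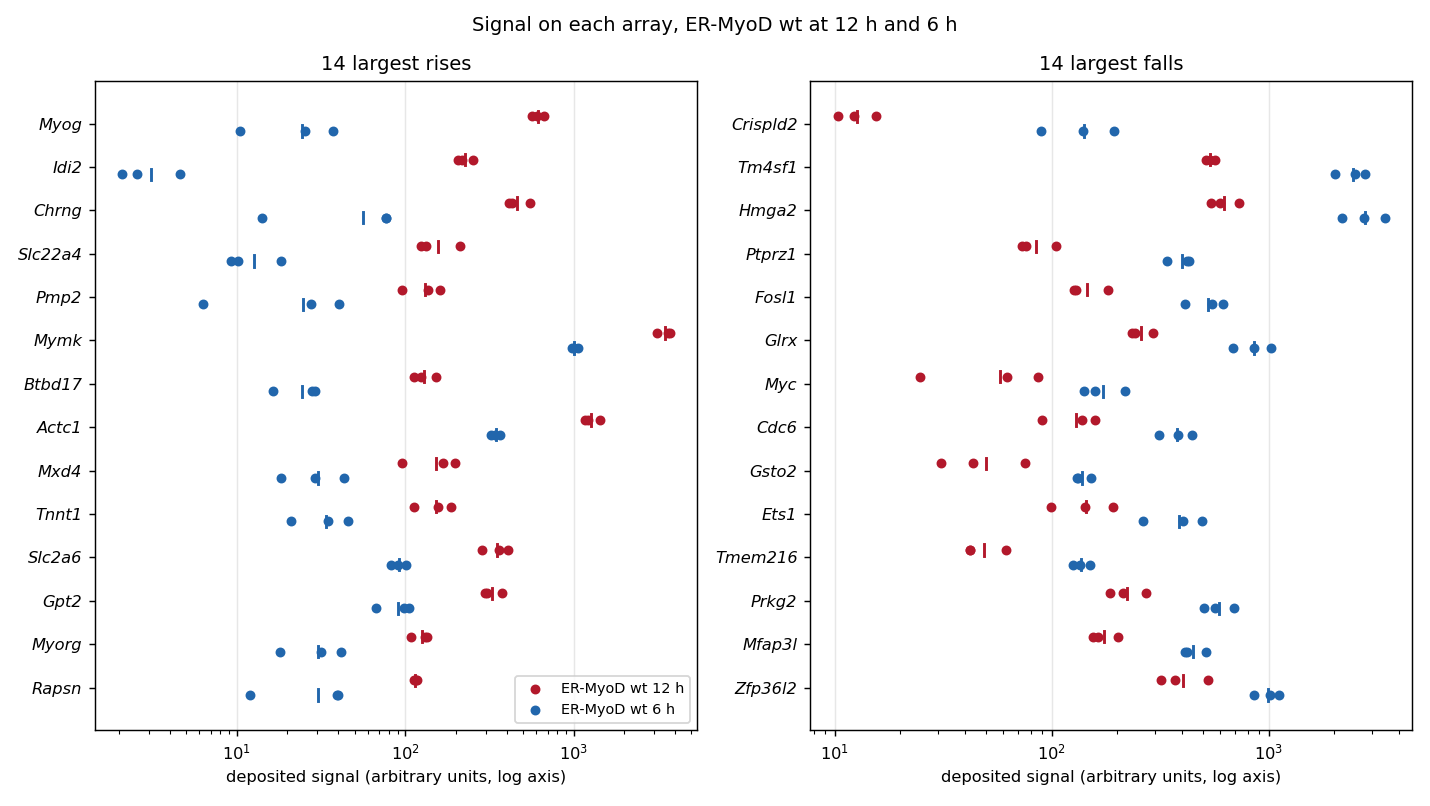
Deposited signal (arbitrary units, log axis) of the genes with the 14 largest rises and the 14 largest falls among those past the threshold without overlap and with a mean of at least 100 in the higher group, sorted by log2 difference. Each row shows the 3 arrays of ER-MyoD wt at 12 h (red, upper) and the 3 at 6 h (blue, lower) with a bar at each group's mean: Mymk lies between 3116 and 3723 at 12 h and between 972 and 1059 at 6 h, and Tm4sf1 between 512 and 566 at 12 h and between 2031 and 2787 at 6 h.

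The plot of signals by array holds several large rises outside the muscle lists. Idi2, an isopentenyl diphosphate isomerase of skeletal muscle, was near 0 at 6 h. It had signals of 217, 207 and 253 at 12 h and 2.10, 2.57 and 4.62 at 6 h, a rise of 3.64 ± 0.19 (adjusted p = 4.58e-13). Slc22a4, an organic cation and ergothioneine transporter, had 213, 124 and 133 at 12 h and 10.2, 18.4 and 9.30 at 6 h (2.54 ± 0.29, adjusted p = 2.91e-06). In both genes the arrays of 12 h and 6 h differed by far more than their spread. Slc2a6, a glucose transporter family member, averaged 351 ± 62.5 at 12 h and 91.3 ± 8.96 at 6 h (1.65 ± 0.22, adjusted p = 2.98e-05). Gpt2, the mitochondrial alanine aminotransferase, averaged 326 ± 42.2 and 90.2 ± 20.1 at the same times (1.59 ± 0.30). Mxd4, a MAX partner that counters MYC, rose by 1.77 ± 0.34 and Myorg, a glycosidase named for its part in myogenesis, by 1.57 ± 0.29. The peripheral myelin protein gene Pmp2 (1.85 ± 0.40) and Btbd17 (1.80 ± 0.39) complete the list. Pmp2 lost its call without 12 h replicate 1 or 6 h replicate 2 (highest adjusted p 0.092) and Btbd17 without 12 h replicate 1 or 6 h replicate 3 (0.0543). Of all 264 risen genes, 38 had a mean signal under 50 at 6 h, where the added 16 makes a log2 difference smaller than the ratio of signals.

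The largest falls were in genes of several kinds. Crispld2, which encodes a secreted protein, had signals of 10.3, 15.4 and 12.3 at 12 h and 89.2, 194 and 140 at 6 h (-2.45 ± 0.34, adjusted p = 5.62e-05). Tm4sf1, a surface protein of migrating cells, had 512, 566 and 539 at 12 h and 2031, 2492 and 2787 at 6 h (-2.09 ± 0.15, adjusted p = 4.45e-10). Neither gene's groups came near each other. Ptprz1, a receptor tyrosine phosphatase, averaged 84.7 ± 17.3 at 12 h and 398 ± 49.5 at 6 h (-1.97 ± 0.26, adjusted p = 2.85e-05). Glrx, the thiol reductant glutaredoxin, averaged 257 ± 32.7 and 854 ± 166 (12 h, then 6 h; -1.59 ± 0.16, adjusted p = 4.93e-07). Gsto2, a glutathione transferase, fell by 1.29, the cGMP-dependent kinase gene Prkg2 by 1.28 and Zfp36l2, an RNA-binding protein that speeds mRNA decay, by 1.21. Ets1 (-1.28), Tmem216 (-1.28) and Mfap3l (-1.25) lost their calls without 3, 3 and 5 of the 6 arrays in turn (highest adjusted p 0.0776, 0.0615 and 0.107).

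Of 41 genes of the serum response, the early genes that growth factors switch on, 0 rose and 7 fell (median -0.32). Fosl1, an AP-1 subunit, had signals of 126, 182 and 129.9 at 12 h and 413, 547 and 618 at 6 h, without overlap (-1.68 ± 0.19, adjusted p = 2.91e-06). Myc, the growth regulator, had 62.3, 86.5 and 24.6 at 12 h and 218, 159 and 141 at 6 h (-1.44 ± 0.31, adjusted p = 0.00632), and its adjusted p was 0.0723 without 12 h replicate 3. Ier3 (-0.83), the matricellular gene Ccn1 (-0.81), Egr1 (-0.83), Nr4a2 (-1.64) and Klf10 (-0.76) were the other falls. Egr1 lost its call without 12 h replicate 1 (0.0925) and without 3 other arrays. The count was 4 falls without 12 h replicate 1 or without 6 h replicate 2. Most of this list had moved before: 32 of the 41 fell between 6 h and 0 h, a step that shares the 6 h arrays. Egr1, for example, had a mean of 3366 at 0 h, 259 at 6 h and 137 at 12 h.

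Of 51 genes of the extracellular matrix and fibroblasts, 0 rose and 9 fell. Timp1, an inhibitor of matrix proteases, had signals of 1821, 1694 and 2092 at 12 h and 3363, 3193 and 3335 at 6 h (-0.84 ± 0.12, adjusted p = 7.3e-05). Lox, the collagen cross-linking enzyme, averaged 1121 ± 107 at 12 h and 2008 ± 60.7 at 6 h (-0.83 ± 0.13, adjusted p = 0.000324), and Col8a1, a short-chain collagen, 571 ± 20.3 and 1129 ± 85.5 (-0.89 ± 0.17). The others were Mmp10, Tnc, Vim, Timp3, Thy1 and Thbs1, with differences between -0.58 and -1.17. The 9 falls became 4 with median centring and 5 without 12 h replicate 1. Of 26 smooth muscle genes, 0 rose and 4 fell, the actin-binding proteins Cnn2, Cald1 and Tpm1 and the LIM protein gene Fhl2. Cnn2, a calponin, stood at 2151, 2391 and 2192 at 12 h and 3951, 4549 and 4011 at 6 h (-0.86 ± 0.14, adjusted p = 0.000324). The sum of the fibroblast markers, 2 of which (Vim and Thy1) are also in the matrix list, was lower at 12 h as given above. Its part in these falls was not tested. Among secreted signals Fstl1 (-1.09), Ltbp1 (-0.79) and the Wnt inhibitor Dkk2 (-1.19) fell and Chrd, a BMP antagonist, rose (1.10), of 34 measured. The cytokine gene Csf1 averaged 1256 ± 293 at 12 h and 2458 ± 140.0 at 6 h (-0.98 ± 0.18, adjusted p = 0.00158). Its other probe sets, at -0.25, -0.56 and -0.74, did not pass. With the mean over all its probe sets Csf1 lost the call (-0.63, adjusted p = 0.112). Ccl2, a chemokine gene, fell by 0.42 with overlapping signals of 488, 635 and 435 at 12 h and 761, 616 and 782 at 6 h, and its call was lost without 4 of the 6 arrays in turn (highest adjusted p 0.233, without 12 h replicate 3). Dkk2 lost its call without 12 h replicate 1 (0.0798).

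The cell cycle genes showed a divided picture. Of 39 genes of mitosis and cytokinesis, 0 passed in either direction (median 0.05, from -0.29 to 0.35). Of 39 genes of DNA replication, 0 rose and 5 fell (median -0.258). Cdc6, which loads the replicative helicase, had signals of 139, 89.9 and 159 at 12 h and 444, 384 and 312 at 6 h, without overlap (-1.42 ± 0.26, adjusted p = 0.00173). Cdt1, its partner in loading, averaged 905 ± 211 at 12 h and 1499 ± 41.0 at 6 h (-0.69 ± 0.14, adjusted p = 0.00307). Slbp, the histone mRNA binding protein, fell by 0.55, the primase subunit Prim2 by 0.73 and the flap nuclease Fen1 by 0.77. The count was 3 without 12 h replicate 2. Ccnd1, the cyclin that carries growth signals into the cell cycle, had 3332, 3263 and 3341 at 12 h and 5103, 6137 and 5715 at 6 h (-0.76 ± 0.11, adjusted p = 8.16e-05). Of 22 genes of cell cycle exit, 3 rose, the antiproliferative genes Btg1 (0.75) and Tob1 (0.95) and the cyclin gene Ccng2 (0.74), and Gadd45g fell (-0.52). Only Btg1 of the 3 rises kept its call without each array in turn. Btg1 lost it with median centring (adjusted p = 0.113) and with the mean over its probe sets (0.194). With median centring 0 genes of this list rose. The CDK inhibitor gene Cdkn1a and Rb1 did not pass (0.38 ± 0.17, adjusted p = 0.31, and 0.73 ± 0.22, adjusted p = 0.0855). Rb1 had signals of 1217, 1214 and 1278 at 12 h and 909, 603 and 741 at 6 h, and passed with the 6 arrays fitted alone (adjusted p = 0.0219). In the next interval 36 of the 39 replication genes and all 39 mitotic genes fell, with medians of -2.02 and -2.45 between 24 h and 12 h, again with the 12 h arrays in common. Of 34 ribosome biogenesis genes 5 fell, among them Rrs1 (-0.78) and Mybbp1a (-0.60), and 2 to 4 did so with 1 array left out (2 without 12 h replicate 1, 6 h replicate 1 or 6 h replicate 2, and 3 without 12 h replicate 3 or 6 h replicate 3).

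Cholesterol synthesis was the list with the most rises. Of 21 genes measured, 14 rose and 0 fell, with a median of 0.756. Lss, which closes the sterol rings, had signals of 2279, 1828 and 2121 at 12 h and 846, 841 and 701 at 6 h (1.38 ± 0.13, adjusted p = 9.98e-08). Nsdhl, a sterol demethylation enzyme, had 1631, 1274 and 1392 at 12 h and 557, 629 and 641 at 6 h (1.19 ± 0.12, adjusted p = 4.68e-07). In both genes the lowest 12 h array exceeded the highest 6 h array. The rises covered the mevalonate steps Hmgcs1 (0.61), Mvk (0.97), Pmvk (0.82) and Mvd (1.13), the prenyl steps Idi1 (1.04), Fdps (1.15) and Fdft1 (0.83), and the sterol steps Sqle (0.49), Lss, Cyp51 (0.65), Tm7sf2 (1.37), Msmo1 (1.38), Nsdhl and Hsd17b7 (0.76). Dhcr7, Sc5d, Srebf2, Stard4, Insig1, Ebp and Ggps1 did not pass, with differences from -0.12 to 0.69. Hmgcs1 averaged 6173 ± 661 at 12 h and 4310.2 ± 217 at 6 h. It and Sqle lost their calls without 6 and 5 of the 6 arrays in turn (highest adjusted p 0.149 and 0.21, both without 6 h replicate 2). Of 20 genes of fatty acid synthesis, 9 rose and 0 fell (median 0.478). Scd1, a desaturase, had 2085, 1710 and 1927 at 12 h and 846, 987 and 695 at 6 h (1.18 ± 0.12, adjusted p = 3.34e-07). Fasn, the fatty acid synthase, averaged 2485 ± 390.1 at 12 h and 1451 ± 175 at 6 h (0.81 ± 0.12, adjusted p = 0.000211). Elovl6, an elongase, averaged 1254 ± 139.8 and 594 ± 79.4 (12 h, then 6 h; 1.05 ± 0.14, adjusted p = 2.98e-05). Acly, Acss2 and Acaca, which make the acyl building blocks, and Fads2, Scd2 and Elovl5 were the other rises. With 1 array left out the counts stayed between 10 and 13 and between 6 and 8 rises, and with median centring they were 8 and 5.

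**Figure D2:**
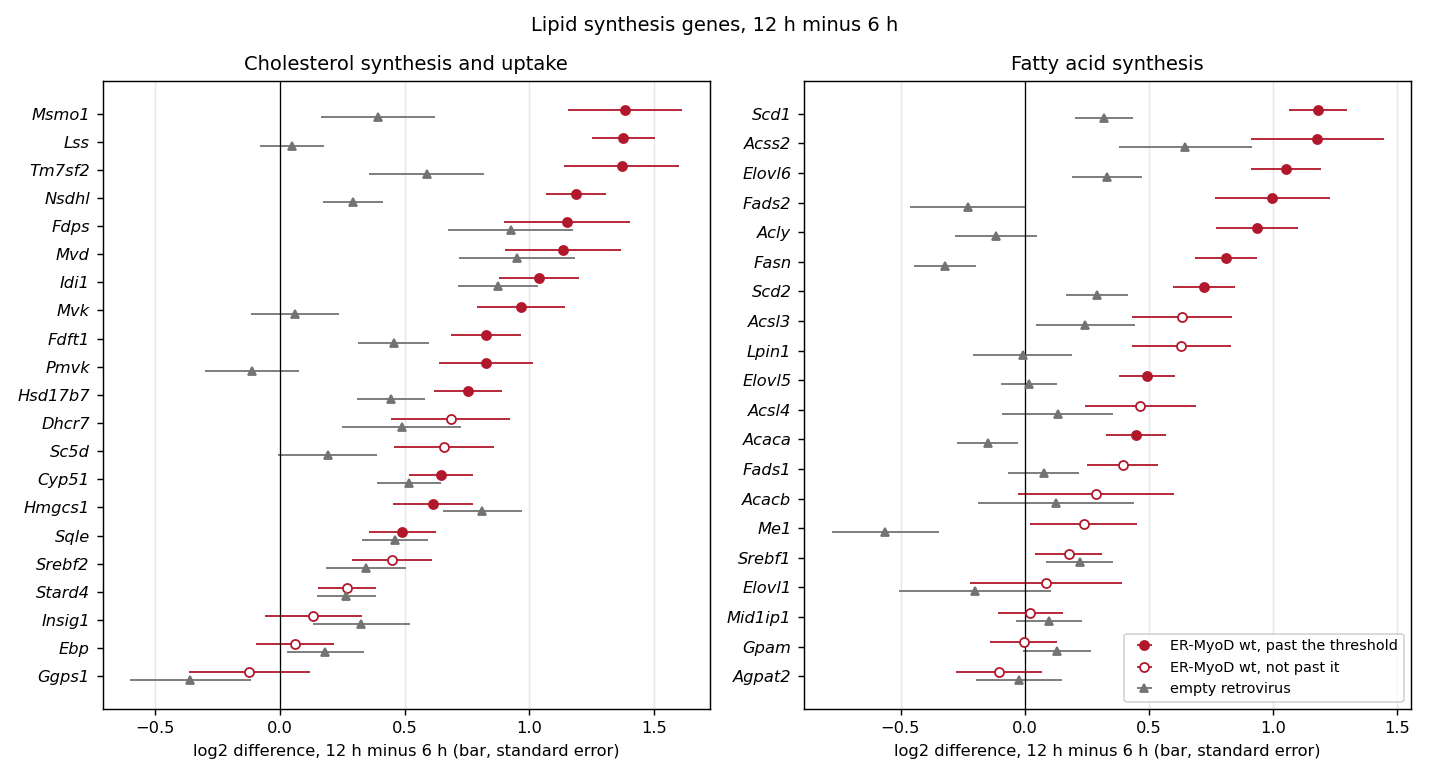
Log2 difference, 12 h minus 6 h, of each measured gene of cholesterol synthesis and uptake (left) and fatty acid synthesis (right), with bars for the standard error of the model (n = 3 arrays per group). Red circles show ER-MyoD wt, filled where the gene passed the threshold, and grey triangles empty retrovirus cells: 14 of 21 and 9 of 20 genes are filled, while Idi1 stands at 1.04 in ER-MyoD wt and 0.87 in empty retrovirus cells, and Lss at 1.38 and 0.05.

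The remaining lists moved little, beside 1.45% risen and 1.2% fallen over all genes. Of 25 Notch pathway genes 3 rose: Dll1, a Notch ligand (1561 ± 75.9 at 12 h and 945 ± 110.4 at 6 h, 0.73 ± 0.14, adjusted p = 0.00309), Hey1, a target of the pathway (1.30 ± 0.26, adjusted p = 0.00436), and the receptor Notch1 (0.66 ± 0.17, adjusted p = 0.0248). Without 6 h replicate 3 only Dll1 passed, with Hey1 at 0.055 and Notch1 at 0.134, and Notch1 also lost its call without 3 other arrays. Id1, Id2 and Id3, inhibitors of MyoD's DNA binding, had differences of -0.51, -0.78 and -0.55 and did not pass (adjusted p = 0.248, 0.417 and 0.144). Id2 passed when the 6 arrays were fitted alone (0.0117). In the insulin-like growth factor list, Igfbp5 had signals of 710, 602 and 786 at 12 h and 316, 333 and 372 at 6 h (0.99 ± 0.16, adjusted p = 0.000558). With the mean over its probe sets it lost the call (0.73, adjusted p = 0.104). Mest and Igf2r passed but lost their calls without any 1 of the 6 arrays. Of 20 circadian genes Tef rose (666 ± 44.6 at 12 h and 327 ± 52.8 at 6 h, 0.98 ± 0.16, adjusted p = 0.000471) and Dbp too (1.08 ± 0.28, adjusted p = 0.0315), although Dbp lost its call without 4 of the 6 arrays in turn. Per1, Per2 and Nr1d1 did not pass. Of 31 chromatin cofactors, Ncoa2 (0.87), Smarcd3 (0.68) and Smarca4 (0.46) rose and Hdac5 fell (-0.57). Without 12 h replicate 1 only 1 of the list passed, and with median centring 0. With the mean over all probe sets of a gene, Ncoa2 (0.15, adjusted p = 0.86) and Smarca4 (0.48, 0.204) did not pass. Other probe sets of Ncoa2 stood at 0.65, -0.50 and -0.42. None of 25 heat shock genes passed, and 1 of 33 stress response genes did, Ero1a, an oxidase of the endoplasmic reticulum (-0.53). Akt2, a kinase of insulin signalling, rose by 0.66 ± 0.14. Bnip3 (0.46) of the hypoxia list, Eda2r (0.81) of the p53 targets, Ifit2 (-0.91) of the interferon list and Zeb1 (0.57) of the Id and Twist list were the last single calls, and the first 3 of them were lost without 3 or 4 of the 6 arrays in turn. Zeb1 lost its call with median centring (adjusted p = 0.101) and with the mean over its probe sets (0.395). Its step in empty retrovirus cells was 0.66.

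**Figure D3:**
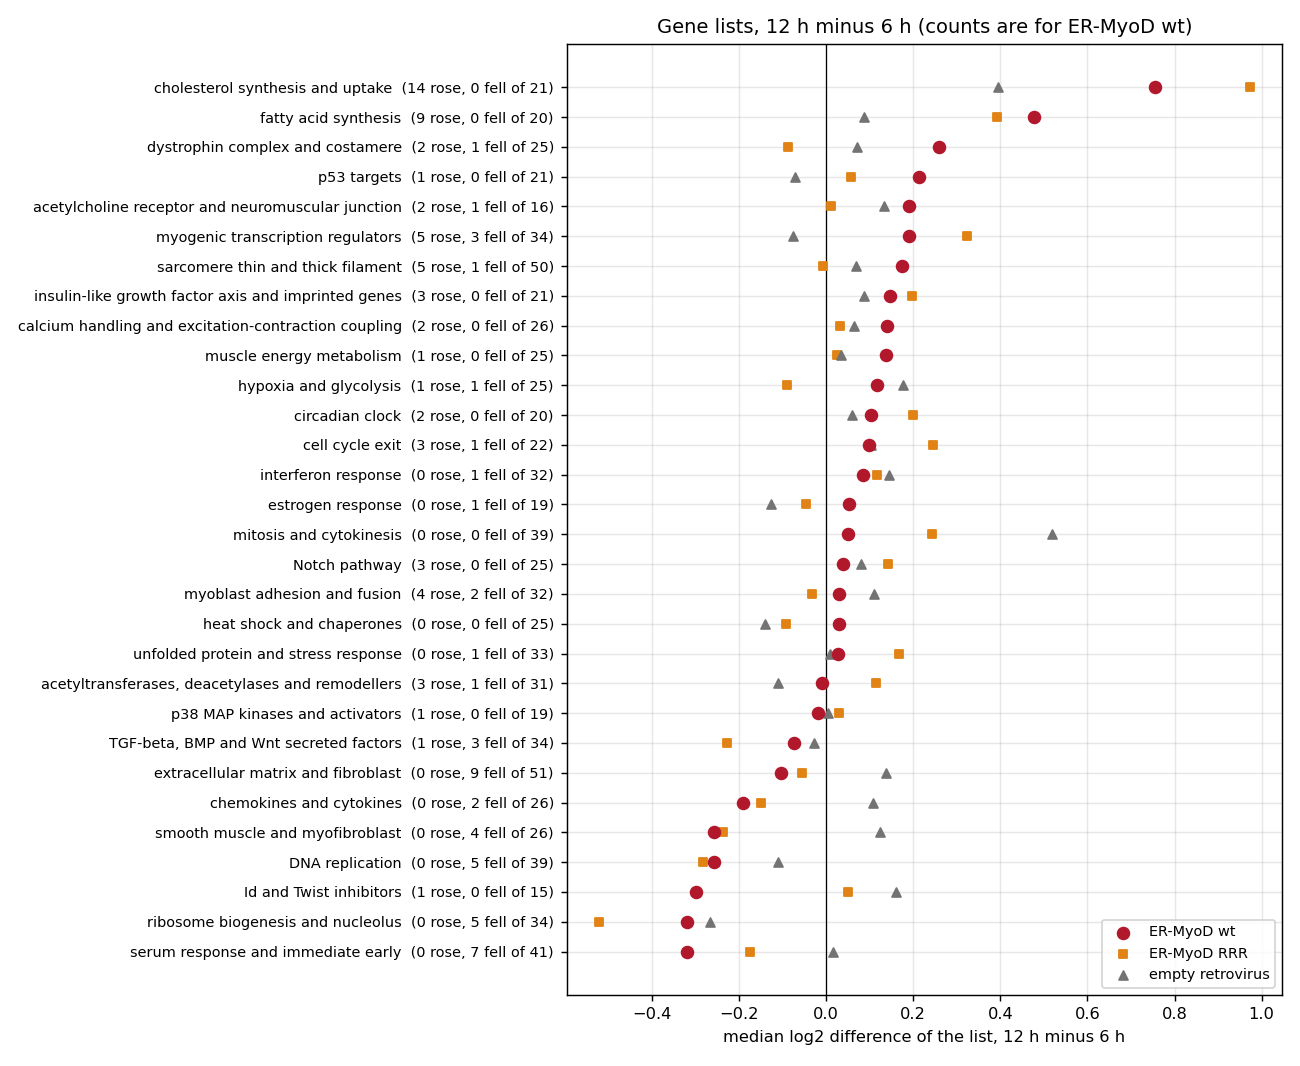
Median log2 difference, 12 h minus 6 h, of 30 gene lists in ER-MyoD wt (red circles), ER-MyoD RRR (orange squares) and empty retrovirus cells (grey triangles), with the number of members that rose and fell in ER-MyoD wt of those measured. The cholesterol list has medians of 0.756, 0.973 and 0.394 in ER-MyoD wt, ER-MyoD RRR and empty retrovirus cells, and the serum response list -0.32, -0.174 and 0.015.

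The same interval in empty retrovirus cells shows what time in the medium did without a fusion, and those cells share no array with the ER-MyoD wt step. Between 12 h and 6 h only 36 genes passed in empty retrovirus cells (0.198%), 30 higher (0.165%) and 6 lower (0.033%). With median centring 0 did. The count was 11, 13, 17 and 22 without empty retrovirus 6 h replicate 1, 6 h replicate 2, 12 h replicate 2 and 12 h replicate 1. Of the 264 genes risen in ER-MyoD wt, 9 also rose in empty retrovirus cells, which is 3.41% of the first list and 30% of the second. Of the 218 fallen genes, 1 fell there and 3 rose. The median step of the 264 was 0.833 in ER-MyoD wt and 0.09 in empty retrovirus cells, and that of the 218 was -0.731 and 0.046. The difference between the 2 steps was tested in the same model. It passed for 159 genes (0.874%), 63 higher (0.346%) and 96 lower (0.528%) in ER-MyoD wt, a count of 37 with median centring and of 82 to 141 with 1 array left out (82 without ER-MyoD wt 6 h replicate 3, 83 and 85 without empty retrovirus 6 h replicates 2 and 1, 87 without ER-MyoD wt 12 h replicate 1 and 89 without ER-MyoD wt 6 h replicate 2). Among the 264 risen genes, 45 (17%) rose more than in empty retrovirus cells, and among the 218 fallen ones, 81 (37.2%) fell more. The ER-MyoD wt step chose these genes and also enters the difference, so these counts and medians lean towards a larger step there.

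Part of the risen muscle genes had a larger step in ER-MyoD wt. Myog rose by 4.14 ± 0.32 more in ER-MyoD wt than in empty retrovirus cells (adjusted p = 2.95e-09), with signals of 10.7, 7.08 and 3.71 in empty retrovirus cells at 12 h and 12.0, 13.6 and 6.62 at 6 h. Idi2 differed by 3.61 ± 0.27 (adjusted p = 2.91e-09), Chrng by 2.70 ± 0.40 (0.000406), Slc22a4 by 2.51 ± 0.41 (0.00127), Actc1 by 2.21 ± 0.40 (0.00401) and Mymk by 1.92 ± 0.36 (0.00575). Mymk lost that call with a pseudocount of 1 (adjusted p = 0.18). Tnnt1 (1.73) and Ckb (0.79) passed too, but not without 6 and 8 of the 12 arrays in turn (highest adjusted p 0.0716 and 0.115) and not with median centring (0.0683 and 0.265). The step differences of other risen muscle genes did not pass: Rapsn had an adjusted p of 0.292, Pvalb 0.16, Cacna1s 0.301, Unc45b 0.473, Actn3 0.613 and Itga7 0.404. The lipid genes were split. Lss rose by 1.33 ± 0.18 more in ER-MyoD wt (adjusted p = 0.000129), Nsdhl by 0.90 ± 0.17 (0.0065), Fasn by 1.13 ± 0.18 (0.000672) and Scd1 by 0.86 ± 0.17 (0.00658). With median centring Lss kept its call (0.0184), while Nsdhl, Fasn and Scd1 lost theirs (0.0827, 0.0796 and 0.242). For Idi1 the step was 1.04 in ER-MyoD wt and 0.87 in empty retrovirus cells, where it also passed (adjusted p = 0.0111), and the steps did not differ beyond their error (0.16 ± 0.23, adjusted p = 0.909). Hmgcs1 (-0.20 ± 0.23) and Sqle (0.03 ± 0.19) had no detectable difference either. Of the 21 cholesterol genes 2 had a larger step in ER-MyoD wt, and the list's median was 0.394 in empty retrovirus cells.

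Several falls ran against a rise in empty retrovirus cells. Errfi1, a feedback inhibitor of the EGF receptor, had signals of 634, 558 and 580 at 12 h and 1481, 1299 and 1353 at 6 h in ER-MyoD wt (-1.14 ± 0.12, adjusted p = 5.09e-07). In empty retrovirus cells it had 780, 959 and 761 at 12 h and 571, 622 and 540 at 6 h, a rise of 0.55 (adjusted p = 0.0391). The steps differed by -1.68 ± 0.17 (adjusted p = 4.71e-07). For Egr1 the step was -0.83 in ER-MyoD wt and 0.73 in empty retrovirus cells, where it did not pass alone, and the difference was -1.57 ± 0.27 (adjusted p = 0.00232). Vcl (-1.33 ± 0.18), Col8a1 (-1.45 ± 0.24), Cnn2 (-1.18 ± 0.19) and Ccl2 (-1.06 ± 0.16) also had steps of opposite sign, of which only that of Ccl2 passed in empty retrovirus cells (0.64, adjusted p = 0.00743). Their step differences passed (adjusted p = 0.000109, 0.0017, 0.00127 and 0.000406). With median centring those of Vcl, Col8a1 and Ccl2 did not (0.0909, 0.0526 and 0.0922), and that of Vcl did not with the mean over its probe sets either (0.467). Tm4sf1 and Crispld2, the strongest falls, moved by 0.20 and 0.05 in empty retrovirus cells. Cdc6 fell in both. It moved by -1.42 in ER-MyoD wt and -1.23 in empty retrovirus cells, where it passed too (adjusted p = 0.0391), and the difference of the steps was -0.19 ± 0.37 (adjusted p = 0.943). Cdt1 had a step of -0.69 in ER-MyoD wt and -0.59 in empty retrovirus cells, the second short of the threshold (adjusted p = 0.0678). Of the 39 mitotic genes, 5 rose in empty retrovirus cells and 0 in ER-MyoD wt, and 0 had a step difference past the threshold.

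**Figure D4:**
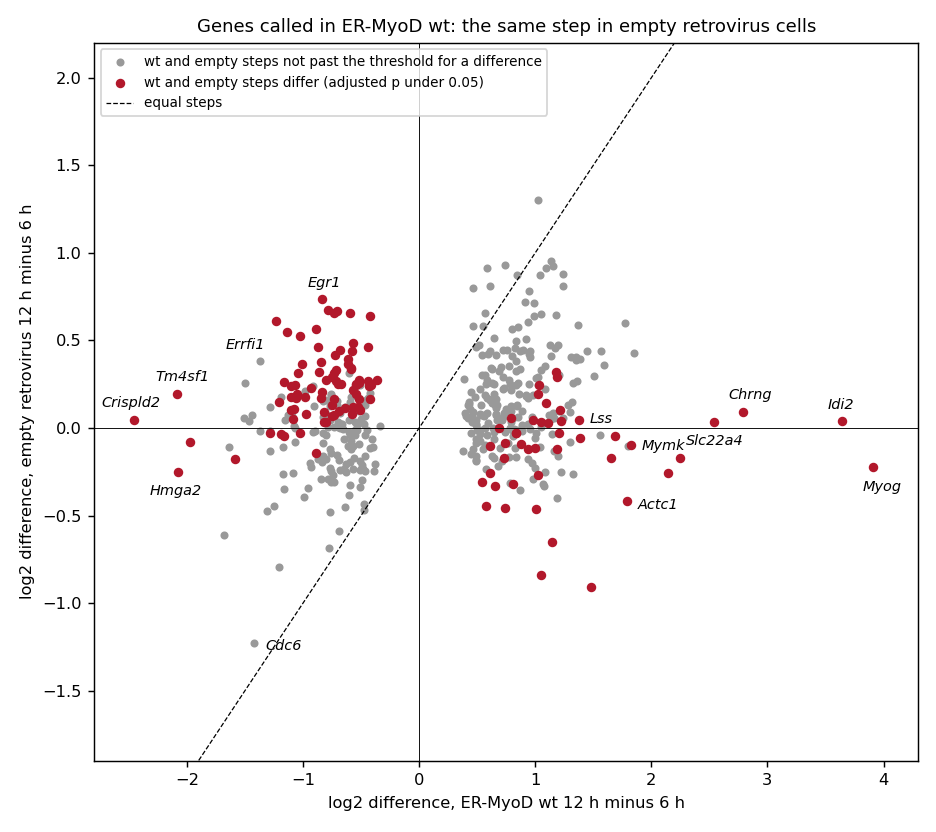
Each of the 482 genes past the threshold in ER-MyoD wt, with its log2 difference of 12 h minus 6 h in ER-MyoD wt on the horizontal axis and in empty retrovirus cells on the vertical axis. Red points are genes whose 2 steps differ (adjusted p under 0.05) and the dashed line marks equal steps: Myog lies at 3.91 and -0.23, Errfi1 at -1.14 and 0.55, and Cdc6, near the line, at -1.42 and -1.23.

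The non-acetylatable fusion took the same step with more genes past the threshold. In ER-MyoD RRR cells 997 genes (5.48%) passed between 12 h and 6 h, 550 higher (3.02%) and 447 lower (2.46%), and 547 did with median centring. The count was 590, 617 and 655 without ER-MyoD RRR 12 h replicate 3, 6 h replicate 3 and 12 h replicate 1. Of the 264 genes risen in ER-MyoD wt, 111 rose there as well, which is 42% of the first list and 20.2% of the second. Of the 218 fallen genes 85 fell there (39% and 19%). The medians of the 264 and the 218 were 0.833 and -0.731 in ER-MyoD wt, which chose the genes, against 0.477 and -0.348 in ER-MyoD RRR. The steps of the 2 fusions differed for 37 genes (0.203%), 9 higher (0.0495%) and 28 lower (0.154%) in ER-MyoD wt. That count was 0 with median centring and ran from 10 without ER-MyoD RRR 12 h replicate 3 to 198 without ER-MyoD RRR 6 h replicate 2, the array with the high 3′ to 5′ ratios. It was 23 or fewer without any other array of ER-MyoD RRR and without ER-MyoD wt 12 h replicates 1 or 3 or ER-MyoD wt 6 h replicates 1 or 3.

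Of the genes chosen by the naming rule, 4 had steps that differed between the fusions. Timp3, named above only as a member of the matrix list, also did, with steps of -0.58 in ER-MyoD wt and 0.39 in ER-MyoD RRR (adjusted p of the difference 0.0326), and no alternative was run for it. Slc22a4 had signals of 24.6, 4.78 and 5.79 at 12 h and 5.10, 5.94 and 5.12 at 6 h in ER-MyoD RRR, where it did not pass, and its step was larger in ER-MyoD wt by 2.21 ± 0.41 (adjusted p = 0.0164). Idi2 rose in both fusions, and by 1.36 ± 0.27 more in ER-MyoD wt (adjusted p = 0.0265). Igfbp5 had 583, 652 and 562 at 12 h and 73.4, 96.2 and 90.1 at 6 h in ER-MyoD RRR. That step of 2.45 ± 0.16 exceeded the one in ER-MyoD wt, with a difference of -1.46 ± 0.23 (adjusted p = 0.00708). Ero1a fell in ER-MyoD wt and moved by 0.20 in ER-MyoD RRR (difference -0.72 ± 0.16, adjusted p = 0.0437). With the mean over all probe sets of a gene, the differences of Igfbp5 and Ero1a were lost (both -0.62, adjusted p = 0.513 and 0.171). The differences of the 4 genes chosen by the rule were lost with median centring. Without single arrays Slc22a4 lost its call 4 times in 12, Idi2 6 times, Ero1a 11 times and Igfbp5 0 times (highest adjusted p 0.0833, 0.0864, 0.117 and 0.0355). The muscle genes did not pass this test: the steps of Myog differed by 1.18 ± 0.32 (adjusted p = 0.122), of Chrng by 0.15 ± 0.40 (0.94), of Actc1 by 0.39 ± 0.40 (0.789) and of Mymk by -0.56 ± 0.36 (0.599). Mymk had signals of 1394, 1048 and 1225 at 12 h and 152, 163 and 330.3 at 6 h in ER-MyoD RRR, below every ER-MyoD wt array of the same time. The cholesterol list rose in ER-MyoD RRR in 14 of 21 genes as well, with a median of 0.973.

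**Figure D5:**
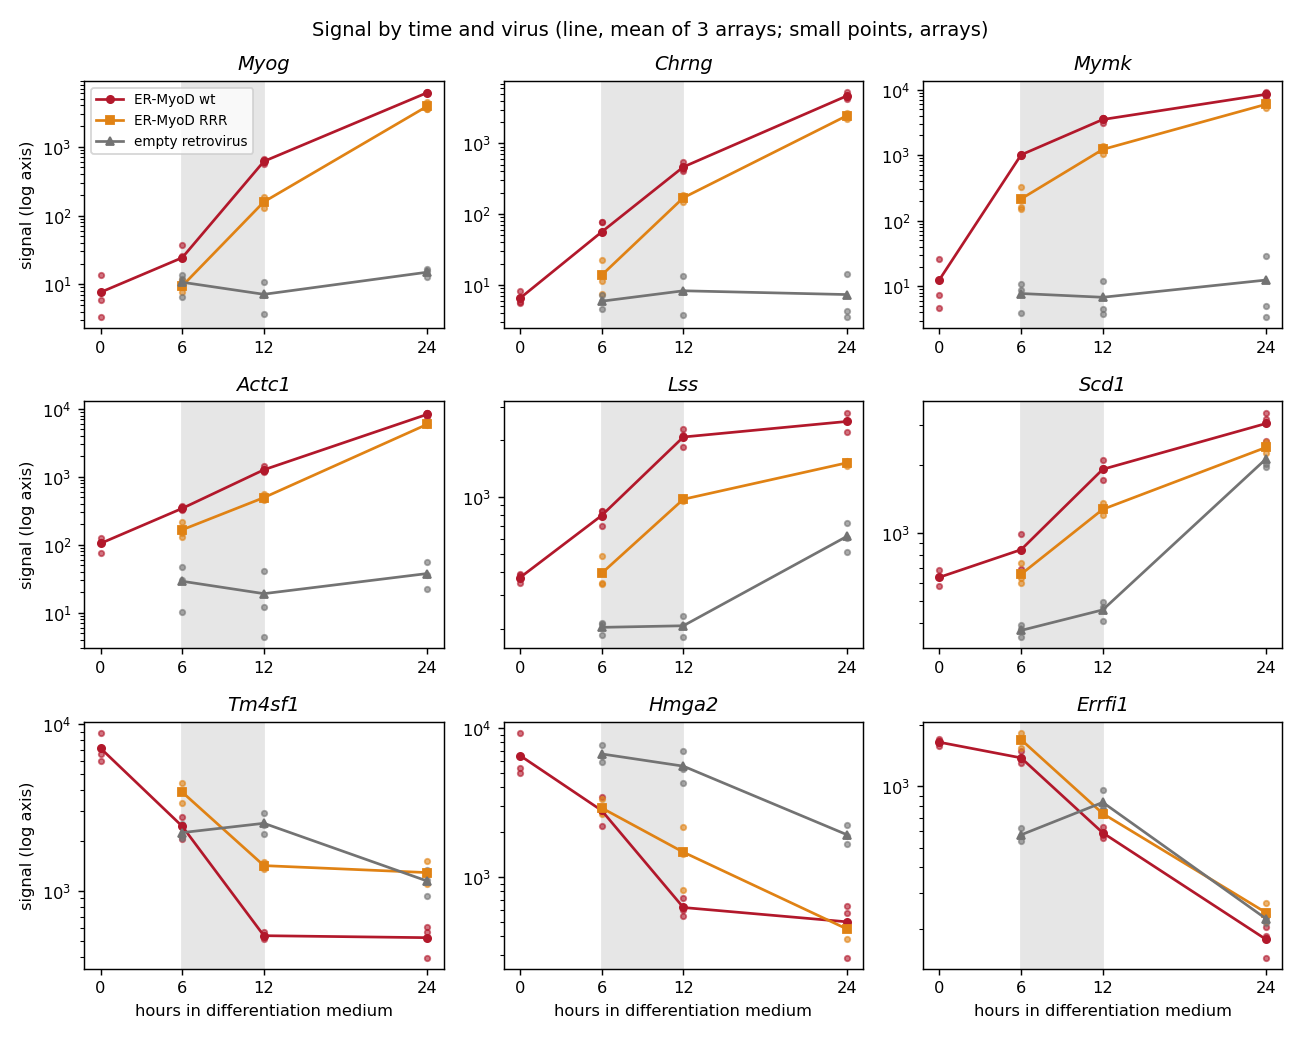
Signal (log axis) of 9 genes over hours in differentiation medium, with lines through the means of 3 arrays and small points for the arrays, for ER-MyoD wt (red), ER-MyoD RRR (orange) and empty retrovirus cells (grey); the band marks 6 h to 12 h. Myog in ER-MyoD wt has means of 7.65, 24.4, 613 and 6113 at 0, 6, 12 and 24 h, and Tm4sf1 7147, 2437, 539 and 524.

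Around the step, the plot of time courses shows different shapes. These steps share arrays, so their values are given side by side. Myog moved by 0.76 between 6 h and 0 h, by 3.91 in the middle step and by 3.25 between 24 h and 12 h (adjusted p = 0.0155, 2.59e-12 and 6.91e-12). Mymk had its largest step first, with 5.09, 1.82 and 1.23, and Dll1 did too, with 3.32, 0.73 and -0.10. Cdh15 moved by 2.82, 1.03 and -0.66, the last a fall past the threshold (adjusted p = 0.0046). Idi2 was level until 6 h (0.10) and moved by 3.64 and 2.38 after it. Slc2a6 and Pmp2 were highest at 12 h: Slc2a6 moved by 0.99, 1.65 and -1.49 and Pmp2 by 0.59, 1.85 and -2.31 (adjusted p of the last steps 7.8e-06 and 8.05e-05). Slc22a4 moved by 2.54 in the middle step and by 0.54 and 0.09 before and after it, neither of which passed. Among the falls, Tm4sf1 moved by -1.45, -2.09 and -0.04, and Ptprz1 by -0.25, -1.97 and -0.14, so that the middle step held most of its fall. Errfi1 moved by -0.20, -1.14 and -1.68, and Prkg2 by -0.44, -1.28 and -1.97. Ccnd1 was higher at 6 h than at 0 h (0.76, adjusted p = 7.03e-06) before it fell by 0.76 and then by 2.76.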

How the data were processed

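Total RNA, biotin-labelled, was measured on 30 one-colour mouse oligonucleotide arrays. The authors deposited 1 linear signal intensity for each of 45101 probe sets and array; the software is not given in the sources used here. Trimmed of its highest and lowest 2% of probe sets, the mean was 150 on every array, so the deposited intensities had been scaled. Leaving out 64 controls, 34945 probe sets carried 1 gene symbol in the platform annotation, 932 carried several and 9160 are unnamed here. A gene was represented by its probe set with the highest mean (18193 genes). Values were quantile-normalised as log2(signal + 16) with no filter on low values, and printed signals are those deposited. All 30 arrays entered a linear model with a mean for each of the 10 groups in limma 3.58.1 (lmFit, eBayes with a trend; 20 residual degrees of freedom) in R 4.3.3; input was read by data.table, version 1.17.8. Differences between steps were contrasts of that model. Tests were two-sided, adjusted by Benjamini-Hochberg over all genes, with a threshold of 0.05. Errors beside differences are standard errors; the number of arrays limits precision. The fit was tested on simulated data. Plots used Python 3.11.15, pandas 2.3.3 and matplotlib 3.10.9.

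Named genes were Myod1 and Myf5, the 14 largest rises and falls past the threshold without overlap and with a mean of at least 100 in the higher group, by the same signal and overlap limits the 6 largest differences from the empty retrovirus step in each direction, the 3 or fewer called members per list of lowest p, and a set of fixed myogenesis genes; other members of a list are named from its counts. The members and the 30 pathway and 9 marker lists were chosen with earlier results of these data known. Other probe sets of a named gene were checked, and none passed with the opposite sign. Some moved like the main one, such as that of Fstl1 (-1.05, against -1.09), but others did not. A second probe set of Ero1a, Notch1 and Mybbp1a stood at 0.10, -0.03 and -0.06, against -0.53, 0.66 and -0.60. These 3 genes lost their calls with the mean over all probe sets (adjusted p = 0.287, 0.479 and 0.4, limma).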

Additional observations from a re-analysis of the deposited data

Results flagged for a closer look

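The results here are steps, 12 h minus 6 h, that differed between cell groups by a test of the difference itself (limma, adjusted p under 0.05). The step in ER-MyoD wt differed from that in empty retrovirus cells for 159 genes and from that in ER-MyoD RRR for 37.

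Among genes chosen by the naming rule, the difference ER-MyoD wt step minus empty retrovirus step was positive for the muscle genes Myog (4.14), Chrng (2.70), Actc1 (2.21), Mymk (1.92), Tnnt1 (1.73), Cdh15 (1.30), Tnnc1 (1.08) and Ckb (0.79). It was positive for Idi2 (3.61), for the transporter genes Slc22a4 (2.51) and Slc2a6 (1.82), for Tef (0.93) and for the lipid genes Lss (1.33), Fasn (1.13), Nsdhl (0.90) and Scd1 (0.86). It was negative for Crispld2 (-2.50), Tm4sf1 (-2.28), Ptprz1 (-1.89), Hmga2 (-1.82), Errfi1 (-1.68), Egr1 (-1.57), Glrx (-1.41), Zfp36l2 (-1.36) and Prkg2 (-1.25). Genes of matrix, adhesion and smooth muscle with a negative difference were Col8a1 (-1.45), Vcl (-1.33), Cnn2 (-1.18), Fstl1 (-1.14), Timp1 (-1.04), Fhl2 (-0.91), Cald1 (-0.76) and Vcam1 (-0.69), and the others were Csf1 (-1.06), Ccl2 (-1.06) and Ero1a (-0.65).

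Other genes that the text names only as members of a list also passed: Acly (1.05), Tnc (-1.25), Tpm1 (-0.97), Cdh11 (-0.93), Cebpb (-0.93), Hdac5 (-1.05) and Prim2 (-1.14). No alternative was run for these 7. Of the 36 genes before them, 26 kept the call when each of the 12 arrays was left out in turn, and 14 under every alternative. Ero1a lost it without 11 of the 12 arrays in turn, Prkg2, Zfp36l2, Vcam1 and Csf1 without 10 and Tef without 9. Ckb lost it without 8, Tnnt1 without 6 and Fhl2 without 3, and Fstl1 reached an adjusted p of 0.05 without 1. With the mean over all probe sets of a gene, the adjusted p was 0.827 for Ero1a, 0.798 for Vcam1 and 0.787 for Tef.

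Among genes chosen by the naming rule, ER-MyoD wt step minus ER-MyoD RRR step was 2.21 for Slc22a4, 1.36 for Idi2, -0.72 for Ero1a and -1.46 for Igfbp5. None of these 4 kept the call under every alternative. The steps of Timp3, a member of the matrix list, also differed (-0.58 in ER-MyoD wt and 0.39 in ER-MyoD RRR, adjusted p = 0.0326).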

How the results depend on the processing

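No named gene changed direction while past the threshold under any alternative. In ER-MyoD wt more genes rose than fell in the main fit, but fewer rose than fell with median centring, as given above. Of 89 named genes that passed in ER-MyoD wt, 39 passed under every alternative, and of 25 that did not, 21 passed under none. The call was lost for 23 genes with median centring and for 25 with the mean over all probe sets of a gene, but for 6 with the values as deposited and 2 with a pseudocount of 1. Counts of genes past the threshold moved as follows with median centring: 219 of 482 in ER-MyoD wt, 547 of 997 in ER-MyoD RRR (64.7% higher, against 55.2%), 0 of 36 in empty retrovirus cells, 37 of 159 for ER-MyoD wt minus empty retrovirus and 0 of 37 for ER-MyoD wt minus ER-MyoD RRR. Without a trend in eBayes the last 3 were 21, 93 and 13. The values as deposited gave 23 in empty retrovirus cells. The difference from ER-MyoD RRR counted 64 genes with a filter at a mean signal of 50, 14 with the mean over probe sets and 79 with a replicate block. The cause was not tested.

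With 1 array left out the counts ran from 254 to 345 in ER-MyoD wt, 11 to 31 in empty retrovirus cells, 590 to 1114 in ER-MyoD RRR, 82 to 141 and 10 to 198 for the differences from them, 2533 to 2836 between 6 h and 0 h and 2576 to 2885 between 24 h and 12 h.

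Whether replicate numbers pair the arrays could not be settled. Same-numbered arrays of 12 h and 6 h had deviations that correlated at 0.008, -0.017 and 0.055, and 2 of 3 correlated best with their own number. With a replicate block 553 genes passed in ER-MyoD wt, and 385 with the 6 arrays alone. Depth has no count here; signals under 50 had the least precise ratios.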
